A study of Mus musculus with 2 samples.

Results

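Lipolysis, the release of stored triglyceride as fatty acids and glycerol, was examined through 9 genes: Pnpla2, Lipe, Mgll, Abhd5, G0s2, Adrb3, Adrb1, Adra2a and Pde3b. They were chosen by name, as the lipases of the adipocyte, their co-activator and inhibitor, the adrenergic receptors that start the signal and the phosphodiesterase that ends it. The 9 genes are 9 of the 31053 gene rows measured by single-nucleus RNA sequencing (snRNA-Seq), which captures the RNA of single nuclei in droplets and counts each captured molecule by a unique molecular identifier (UMI). Their UMIs were summed per cell class and library, and none of the 9 was used to define a class.

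The tissue was inguinal white fat (iWAT, which lies under the skin) of male mice fed a Western diet for 4 weeks. The Lexis KO library came from Lexis-AdKO mice, which carry Lexis fl/fl alleles and Cre recombinase under the adiponectin promoter. This design targets Lexis, a long noncoding RNA, for deletion in adipocytes. Lexis in the other cells of the depot was not analysed here. The Lexis WT library came from Lexis-AdWT mice, which carry the same Lexis fl/fl alleles without Cre. Each library pooled the tissue of 3 mice, taken without the lymph node, and there was 1 library per genotype. The names of the deposited files give the opposite genotype for both libraries, and the labels were not checked by the targeted gene, as Lexis was not analysed here. They are called here the WT-labelled and the KO-labelled library, and all directions follow the labels.

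With 1 library per genotype there was no replicate and no test. Every interval given is a 95% interval that covers counting error only, not the spread between mice or preparations. The libraries differed in ways that touch every value: 3503 nuclei with a median of 1195 UMIs were kept in the WT-labelled library, and 2833 nuclei with a median of 3865 UMIs in the KO-labelled library. Lymphocyte nuclei made up 57.6% of the former and 3.42% of the latter, although the lymph node had been removed. Of the barcodes, 12 occurred in both libraries, and 1 adipocyte barcode of the WT-labelled library and 3 of the KO-labelled library were among them.

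In the adipocyte, noradrenaline acts on the beta receptors Adrb3 and Adrb1, which raise cyclic AMP (cAMP) through the stimulatory G protein, whereas the alpha receptor Adra2a lowers it through an inhibitory G protein. cAMP activates protein kinase A, which phosphorylates the lipid droplet coat and hormone-sensitive lipase. Triglyceride is then cleaved in sequence by adipose triglyceride lipase (Pnpla2), hormone-sensitive lipase (Lipe) and monoglyceride lipase (Mgll). Abhd5 is the co-activator of Pnpla2 and G0s2 its inhibitor. Insulin opposes the cascade through Pde3b, a phosphodiesterase that hydrolyses cAMP.

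The genes differ strongly in structure, which matters for nuclear RNA because much of it is unspliced. On GRCm38 (mm10), Pnpla2 (ENSMUSG00000025509) lies at chr7:141455188-141460743, Lipe (ENSMUSG00000003123) at chr7:25379527-25398486, Mgll (ENSMUSG00000033174) at chr6:88724412-88828360 and Abhd5 (ENSMUSG00000032540) at chr9:122351616-122381524. G0s2 (ENSMUSG00000009633) lies at chr1:193272160-193273188 and Pde3b (ENSMUSG00000030671) at chr7:114415222-114537938. The receptors Adrb3 (ENSMUSG00000031489), Adrb1 (ENSMUSG00000035283) and Adra2a (ENSMUSG00000033717) lie at chr8:27225776-27230845, chr19:56722117-56725150 and chr19:54045259-54048982. In the GENCODE M1 annotation, Adrb1 and Adra2a have 0 intronic bases, G0s2 has 186, Adrb3 920, Pnpla2 2526, Lipe 14666, Abhd5 26658, Mgll 99081 and Pde3b 117072. Lipe overlaps the long noncoding gene 4732471J01Rik, Mgll overlaps Gm26588 and Adrb3 overlaps Gm45470, and how reads in these overlaps were assigned is not given in the sources used here.

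Across cell classes, the levels of Pnpla2, Lipe and G0s2 went together most closely among the enzymes and their inhibitor. Over 11 sums of a cell class in a library (log2 of CPM plus 10, centred within library, where CPM are counts per 1000000 counts of the sum), Pearson's r was 0.96 for Pnpla2 with Lipe, 0.92 for Pnpla2 with G0s2 and 0.92 for Lipe with G0s2. Outside this scope, G0s2 went more closely with the receptor Adrb3, at 0.95. These are descriptions over sums that share libraries, with no test. For their closeness among the enzymes and their inhibitor, Pnpla2, Lipe and G0s2 are shown with the 250 bases before annotated starts. The bases come from RefSeq on GRCm38.p6 and are written 5′ to 3′ on the strand of the gene. For Lipe 2 starts are shown, both inside the gene's annotated span, whose outermost start at 25398486 is not among them. Capitals mark motifs found by a search of both strands for the nuclear receptor half-site AGGTCA, the C/EBP motif TTGCNNAA, the cAMP response element TGACGTCA with its half-site TGACG contained in it, the E-box CACGTG, the CCAAT box and the TATA box TATAAA.
Pnpla2, chr7:141454938-141455187, plus strand: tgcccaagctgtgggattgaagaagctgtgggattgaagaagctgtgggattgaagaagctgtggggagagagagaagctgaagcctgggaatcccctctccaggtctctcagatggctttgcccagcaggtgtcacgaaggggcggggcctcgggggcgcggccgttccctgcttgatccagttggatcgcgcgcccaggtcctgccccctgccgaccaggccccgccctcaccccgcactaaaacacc
Lipe, first start shown, chr7:25395988-25396237, minus strand: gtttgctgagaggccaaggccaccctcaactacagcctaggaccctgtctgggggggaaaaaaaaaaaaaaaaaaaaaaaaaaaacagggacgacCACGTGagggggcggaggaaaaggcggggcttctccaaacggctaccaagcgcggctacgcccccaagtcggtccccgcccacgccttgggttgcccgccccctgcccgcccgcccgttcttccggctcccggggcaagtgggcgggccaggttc
Lipe, second start shown, chr7:25390113-25390362, minus strand: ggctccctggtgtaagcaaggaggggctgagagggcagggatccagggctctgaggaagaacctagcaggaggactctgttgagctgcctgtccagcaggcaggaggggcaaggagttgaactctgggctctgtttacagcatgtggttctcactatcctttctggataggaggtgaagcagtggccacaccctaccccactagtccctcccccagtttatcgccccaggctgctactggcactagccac
G0s2, chr1:193273189-193273438, minus strand: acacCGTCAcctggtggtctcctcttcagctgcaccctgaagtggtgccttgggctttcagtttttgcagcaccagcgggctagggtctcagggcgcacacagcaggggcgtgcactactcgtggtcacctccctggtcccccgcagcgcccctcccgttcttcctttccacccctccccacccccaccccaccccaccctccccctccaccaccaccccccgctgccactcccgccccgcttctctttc

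Only 2 matches fell in these 4 windows. The E-box CACGTG stood 155 bases before the first start shown for Lipe, and 6.02% of 32851 RefSeq windows of this length hold it. The half-site TGACG was found on the opposite strand 246 bases before the start of G0s2, and 17.8% of the windows hold it. None of the other motifs was found, which says only that these letters are not in these windows; AGGTCA occurs in 14.0% of all windows, TTGCNNAA in 9.56%, TGACGTCA in 1.55%, CCAAT in 33.8% and TATAAA in 12.4%. Reads from the 3′ end do not tell which start was used.

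Adipocyte nuclei held most UMIs of 8 of the 9 genes, Adra2a being the exception with 0 UMIs there. The adipocyte class held 371 nuclei of the WT-labelled library (1611778 UMIs, median 3506 per nucleus) and 879 nuclei of the KO-labelled library (8407698 UMIs, median 7829), and 14 of 14 adipocyte markers, Adipoq and Plin1 among them, were detected in it in each library. These nuclei formed 10.6% and 31.0% of the kept nuclei. They carried 84.3% of all Adrb3 UMIs in the WT-labelled library and 97.9% in the KO-labelled library. For Lipe the shares were 70.7% and 94.2%, for G0s2 78.7% and 91.3%, for Pnpla2 55.8% and 86.3%, and for Pde3b 54.2% and 88.2%. Mgll (62.1% and 79.2%), Abhd5 (63.0% and 82.7%) and Adrb1 (51.9% and 63.5%) were also carried mostly by adipocytes. These shares move with the number of adipocyte nuclei in each library, which differed.

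**Figure D1:**
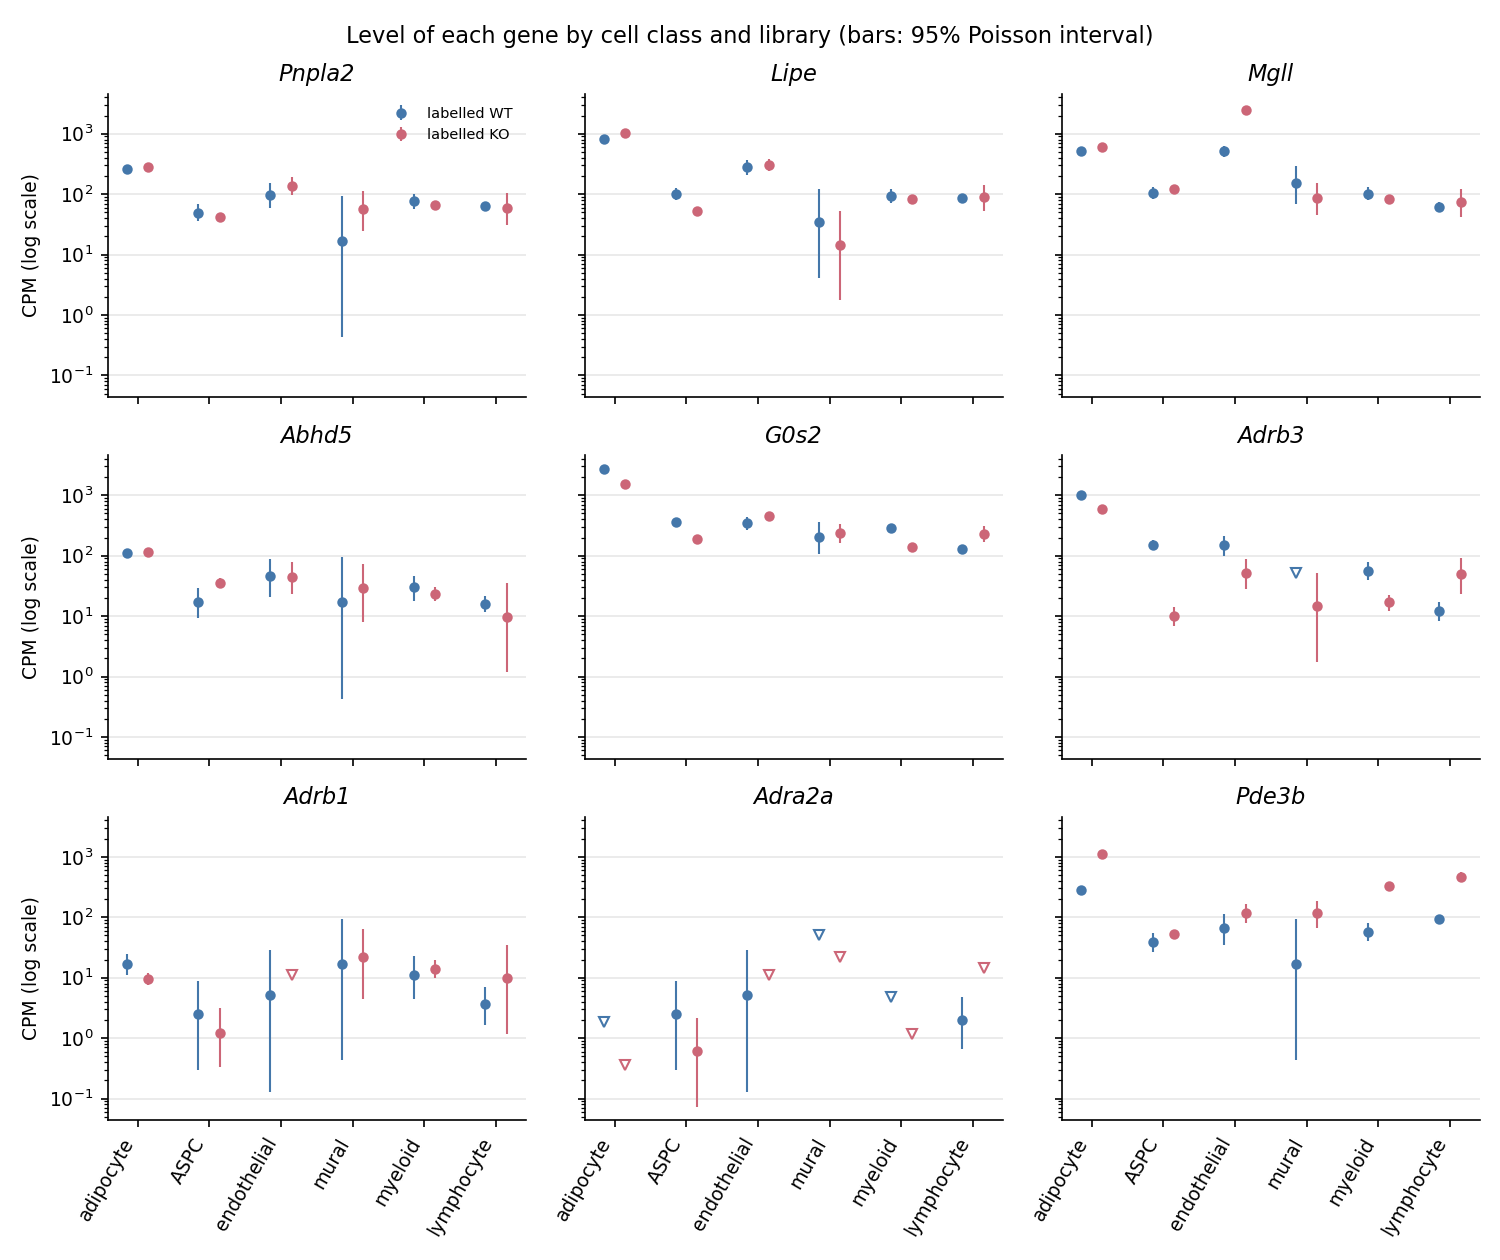
CPM (log axis) of each gene in 6 cell classes, for the WT-labelled library (blue) and the KO-labelled library (red), with 95% Poisson intervals; open triangles mark a count of 0 at the level that 3 counts would give. Adipocytes are highest for Pnpla2, Lipe, Abhd5, G0s2, Adrb3 and Pde3b in both libraries, while endothelial nuclei of the KO-labelled library are highest for Mgll, at 2502 CPM.

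The lipases and their co-activator had CPM ratios near 1 between the adipocytes of the 2 libraries, and centring on intronic length, described below, moved the ratio of Pnpla2 to 1.86 and that of Mgll to 0.642. Pnpla2, which makes the first cut of triglyceride, had 413 UMIs (256 CPM) in the WT-labelled library and 2393 UMIs (285 CPM) in the KO-labelled library, a ratio of labelled KO over labelled WT of 1.11 (1.00 to 1.24). Lipe, the diglyceride lipase, had 1312 UMIs (814 CPM) and 8575 UMIs (1019.9 CPM), a ratio of 1.25 (1.18 to 1.33). Mgll, which releases the last fatty acid, had 832 UMIs (516 CPM) and 5119 UMIs (609 CPM), a ratio of 1.18 (1.10 to 1.27). Abhd5 had 177 UMIs (110 CPM) and 973 UMIs (116 CPM), a ratio of 1.05 with an interval of 0.897 to 1.24 that includes no difference. These 4 ratios lay between 1.05 and 1.25, and the sign of differences this small followed the scaling: with mitochondrial genes and Malat1 left out of the totals, the log2 ratios of Pnpla2, Mgll and Abhd5 were -0.11, -0.02 and -0.19, whereas that of Lipe stayed above 0 at 0.06.

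Summed over all adipocyte nuclei, G0s2, the inhibitor of Pnpla2, and both beta receptors were lower in the KO-labelled library, by nearly the same factor. G0s2 had 4412 UMIs (2737 CPM) in the adipocytes of the WT-labelled library and 12821 UMIs (1525 CPM) in those of the KO-labelled library, a ratio of 0.557 (0.538 to 0.577). Adrb3, the main beta receptor of the mouse adipocyte, had 1643 UMIs (1019.4 CPM) and 4916 UMIs (585 CPM), a ratio of 0.574 (0.542 to 0.607). Adrb1 had only 27 UMIs (16.8 CPM) and 80 UMIs (9.52 CPM), a ratio of 0.568 (0.363 to 0.914). In the 2 main adipocyte clusters of the KO-labelled library, described below, Adrb1 stood at 16.8 CPM (cluster 2) and 3.48 CPM (cluster 7). Only cluster 7 lay below the WT-labelled library for Adrb1. In log2 terms the 3 genes stood at -0.84, -0.80 and -0.82, and none reached a ratio of 0.5. All 3 have 920 intronic bases or fewer, and after centring on genes of the same intronic length, described below, their log2 ratios were 0.05, 0.15 and 0.06. Adra2a, the opposing alpha receptor, had 0 UMIs in the adipocytes of either library, which allows up to 1.86 CPM in the WT-labelled library and 0.357 CPM in the KO-labelled library. Only 11 and 2 UMIs of Adra2a were counted in the 2 libraries in all, 5 of them in lymphocyte nuclei and 4 in adipogenic stem and precursor cell (ASPC) nuclei.

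Pde3b, the insulin-responsive phosphodiesterase, differed most. It had 457 UMIs (284 CPM) in the adipocytes of the WT-labelled library and 9227 UMIs (1097 CPM) in those of the KO-labelled library, a ratio of 3.87 (3.52 to 4.26). It was detected in 208 of 371 and in 835 of 879 adipocyte nuclei, and the 3 nuclei with most UMIs held 25 of the 457 and 291 of the 9227, so the difference did not rest on a few nuclei. Its log2 ratio of 1.95 exceeded those of the other members in each of the 11 alternative settings, with a range of 0.94 to 2.19. With centring on intronic length, described below, this order was not resolved. Pde3b then stood at 0.94 (0.81 to 1.08) and Pnpla2 at 0.90 (0.75 to 1.05), with overlapping intervals.

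Of the 9 genes, 8 reached 50 adipocyte counts over both libraries. Of these 8, 1 (Pde3b) had a ratio of at least 2, a threshold passed by 26.8% of the 11105 genes with as many counts, and 0 had a ratio of at most 0.5, passed by 15.8% of them. The median log2 ratio was 0.11 over the 8 genes and 0.05 over all 11105. Among all genes past either threshold, 63.0% were higher in the KO-labelled library; this share was 77.1% with TMM scaling (edgeR) and 47.8% with mitochondrial genes and Malat1 left out of the totals. With TMM 1 member passed the higher threshold and 0 the lower, against 31.6% and 9.39% of all genes. With the other totals the counts were 1 and 3, the 3 being G0s2, Adrb3 and Adrb1, against 22.4% and 24.5%.

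Across all genes the ratio rose with intronic length. The adipocyte median stood at a log2 ratio of -0.87 for 177 genes without introns, -0.88 over 1020 genes with up to 3000 intronic bases, -0.55 from 3000 to 10000, -0.13 from 10000 to 30000, 0.46 from 30000 to 100000, and 1.53 over 1395 genes with more than 100000. The medians of genes without introns and of genes with more than 100000 intronic bases were -0.71 and 1.59 in ASPC, -0.92 and 1.49 in myeloid and -0.88 and 1.46 in endothelial nuclei. Of the 8 members with at least 50 counts, the 3 that were lower in the KO-labelled library have the fewest intronic bases, and the member that was far higher has the most. Genotype, preparation and depth cannot be told apart with 1 library each, and the part of intronic content in the members' ratios is therefore given only as a value, by subtracting the running median over genes of the nearest intronic length.

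**Figure D2:**
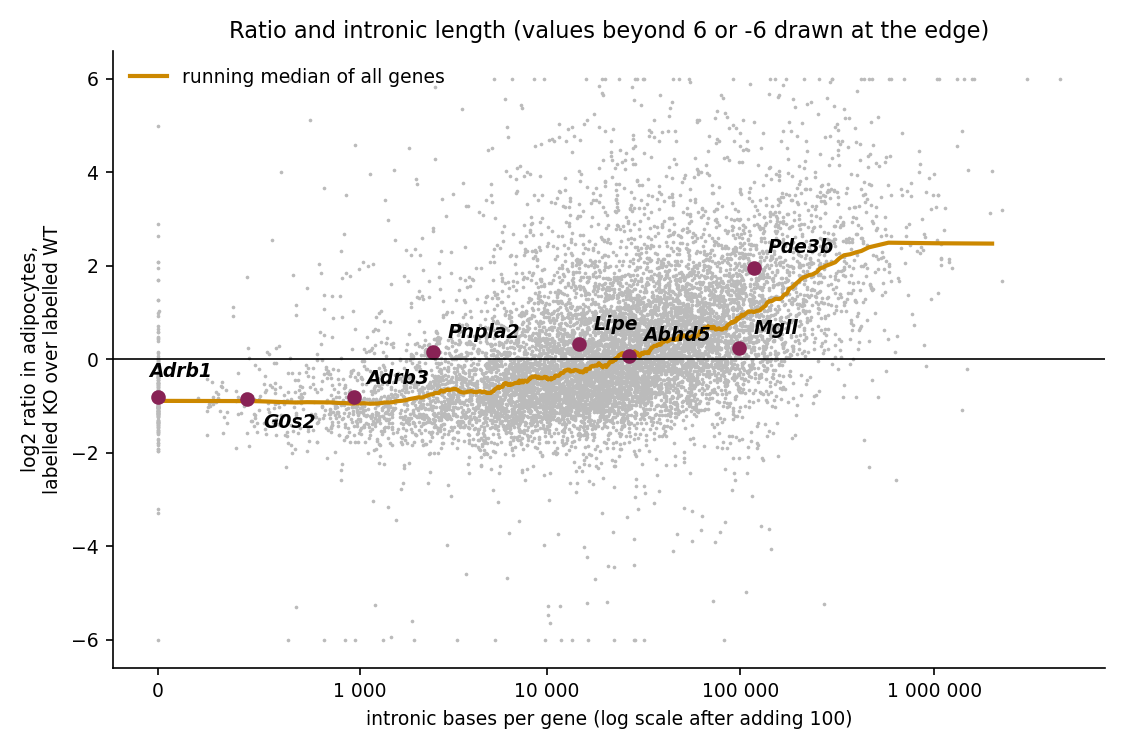
Log2 ratio in adipocytes (labelled KO over labelled WT) against intronic bases per gene (log scale after adding 100) for 10405 genes with at least 50 counts (grey), with their running median (orange) and the 8 members that reached 50 counts (purple). G0s2, Adrb3, Adrb1 and Abhd5 lie within 0.15 of the running median, Pde3b, Pnpla2 and Lipe farther above it, and Mgll below it.

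After this centring the picture changed for most members. Pnpla2, with 2526 intronic bases, stood at a log2 value of 0.90, and Lipe, with 14666, at 0.58. Pde3b kept a value of 0.94, less than its uncentred 1.95. Mgll turned to -0.64, as its ratio of 1.18 lay under the running median of genes with introns of about its length. Abhd5 stood at -0.06. Among the 8 genes, 0 then passed a 2-fold difference in the higher direction and 0 in the lower, against 19.0% and 11.3% of 10405 genes. Lipe and Pde3b were the only members of the 8 whose log2 ratio kept its sign in all 11 alternative settings.

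**Figure D3:**
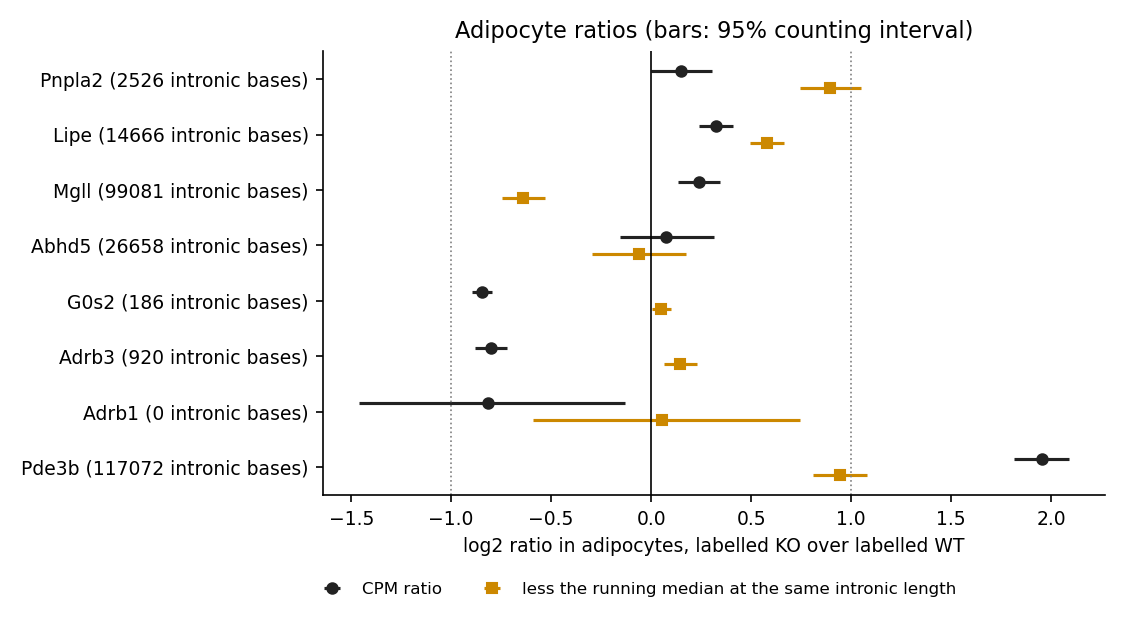
Log2 ratio of each member in adipocytes with its 95% counting interval, as CPM ratio (black circles) and after subtracting the running median of genes of the same intronic length (orange squares); dotted lines mark 2-fold. Before centring Pde3b lies at 1.95 and G0s2, Adrb3 and Adrb1 near -0.8; after it no member lies beyond 2-fold.

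At equal depth, the shares of nuclei with a UMI of G0s2, Adrb3 and Pde3b stood in the order of their levels. Each nucleus was thinned to 1000 UMIs, which left out 12 and 6 of the adipocyte nuclei. G0s2 was detected in 84.1% (79.9 to 87.7) of the thinned adipocyte nuclei of the WT-labelled library and in 70.3% (67.2 to 73.3) of those of the KO-labelled library. Adrb3 was detected in 52.4% and 39.5%, and Pde3b in 25.1% and 59.0%. Without thinning the shares were 94.9% and 96.4% for G0s2 and 73.9% and 83.4% for Adrb3, so the unthinned order of G0s2 and Adrb3 was the opposite. The shares of Pnpla2 (23.7% and 25.4%), Mgll (40.1% and 41.7%) and Abhd5 (9.75% and 10.1%) differed by less than their intervals, and Lipe was detected in 57.1% (51.8 to 62.3) and 62.9% (59.6 to 66.1). Adrb1 was found in 2.23% and 1.60%. At 500 UMIs the shares were 67.7% and 50.7% for G0s2, 31.5% and 25.4% for Adrb3 and 11.1% and 40.2% for Pde3b, whereas Mgll, at 27.2% (22.8 to 32.1) and 23.2% (20.5 to 26.1), stood in the opposite order to its CPM. At 1000 UMIs Adra2a was found in 0 of 359 and 0 of 873 nuclei, which allows shares of nuclei with a UMI of up to 0.836% and 0.344% and sets no limit on nuclei that express it.

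Lymphocyte nuclei were taken as the background in shares of nuclei with a UMI. Whether they express members of this cascade themselves, G0s2 among them, was not tested. At 1000 UMIs per nucleus their shares in the WT-labelled library were 10.2% for G0s2, 6.74% for Lipe, 5.96% for Pnpla2, 4.88% for Mgll, 1.86% for Abhd5 and 0.781% for Adrb3. In the KO-labelled library, where only 85 lymphocyte nuclei reached this depth, they were 15.3% (8.4 to 24.7) for G0s2, 8.24% for Lipe and for Pnpla2, 10.6% for Mgll, 1.18% for Abhd5 and 5.88% (1.94 to 13.2) for Adrb3. All of these lay below the adipocyte shares, but the lymphocyte share of Adrb3 was higher in the KO-labelled than in the WT-labelled library. Barcodes of the KO-labelled library with fewer than 500 genes held 660 CPM of G0s2 and 246 CPM of Pnpla2, against 230.4 and 58.8 CPM in lymphocyte nuclei. They held less Pde3b (89.7 against 466 CPM), and for Adrb3 (55.2 and 49.0 CPM) the intervals overlapped. What these barcodes hold was not tested, and neither was how far the lymphocyte level measures free RNA. The median depth before thinning was 1005 UMIs in lymphocyte and 3506 in adipocyte nuclei of the WT-labelled library, and 2077 and 7829 in the KO-labelled library. For Adrb1 the lymphocyte shares were 0.293% and 1.18%, and in the KO-labelled library the latter lies within the interval of the adipocyte share. Pde3b was detected in 9.38% of lymphocyte nuclei of the WT-labelled library and in 34.1% (24.2 to 45.2) of those labelled KO, above every other member there; T cells are known to express it.

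**Figure D4:**
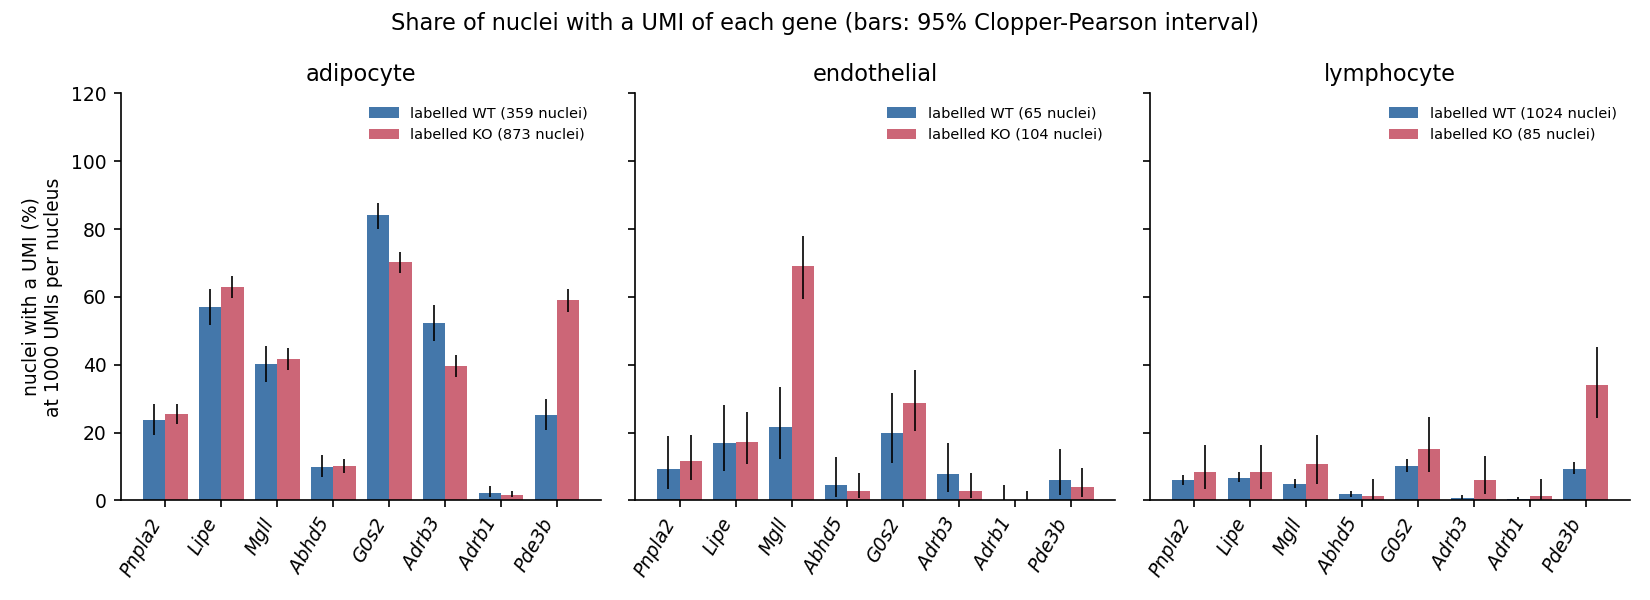
Share of nuclei (%) with a UMI of each gene after thinning to 1000 UMIs per nucleus, in adipocyte, endothelial and lymphocyte nuclei of the WT-labelled library (blue) and the KO-labelled library (red), with 95% Clopper-Pearson intervals. Adra2a is left out; Mgll in endothelial nuclei stands at 21.5% and 69.2%, against 40.1% and 41.7% in adipocytes.

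Outside adipocytes, Mgll in endothelial nuclei showed the largest difference of a lipase. Monoglyceride lipase also degrades the endocannabinoid 2-arachidonoylglycerol and is known from cells other than adipocytes. Endothelial nuclei, which formed 1 cluster with 95 nuclei of the WT-labelled library and 123 of the KO-labelled library and passed 12 of 12 endothelial markers, had 101 Mgll UMIs (515 CPM) and 675 Mgll UMIs (2502 CPM), a ratio of 4.86 (3.94 to 6.05) beside 1.18 (1.10 to 1.27) in adipocytes. In the WT-labelled library, 1 nucleus held 38 of the 101 UMIs and 25 of 95 nuclei had any. In the KO-labelled library, 93 of 123 nuclei had at least 1 UMI and no nucleus held more than 31. At equal depth, 21.5% (12.3 to 33.5) of 65 nuclei and 69.2% (59.4 to 77.9) of 104 nuclei carried Mgll. After the same centring on intronic length within endothelial nuclei, the log2 value of Mgll was 1.60, against -0.64 in adipocytes. In the order of classes, endothelial nuclei stood level with adipocytes for Mgll in the WT-labelled library (ratio of adipocyte over endothelial 1.00, 0.815 to 1.25) and 4.11-fold (3.79 to 4.45) above them in the KO-labelled library. A ratio of at least 2 was measured for 31.0% of 1981 genes in endothelial nuclei.

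Pde3b was higher in the KO-labelled library in immune nuclei too. In myeloid nuclei it had 37 UMIs (58.1 CPM) and 843 UMIs (323 CPM), a ratio of 5.56 (4.00 to 7.95), and in lymphocyte nuclei 236 UMIs (95.1 CPM) and 95 UMIs in far fewer nuclei (466 CPM), a ratio of 4.89 (3.82 to 6.24). In ASPC nuclei the ratio was 1.37 (0.931 to 2.08) and in endothelial nuclei 1.79 (0.914 to 3.72), and both intervals include 1. Centred on intronic length, the values were 1.43 in myeloid, 1.42 in lymphocyte, -0.57 in ASPC and -0.03 in endothelial nuclei, beside 0.94 in adipocytes. Most myeloid nuclei of the 2 libraries fell in different clusters (10 and 16 for the WT-labelled library, 3 and 9 for the KO-labelled library). Of the lymphocyte nuclei, 66 of 97 in the KO-labelled library and 636 of 2016 in the WT-labelled library shared cluster 1, and most others lay in clusters 0 and 11 (WT-labelled) or 19 (KO-labelled). These sums need not hold the same cells.

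Adrb3 in ASPC nuclei was spread differently in the 2 libraries. The ASPC class of the WT-labelled library had 121 Adrb3 UMIs (150 CPM), against 33 UMIs (9.99 CPM) in the KO-labelled library, a ratio of 0.0666 (0.0439 to 0.0985). Most ASPC nuclei of the 2 libraries fell in different clusters, with 301 of 306 in cluster 8 for the WT-labelled library and 389 and 367 of 782 in clusters 4 and 6 for the KO-labelled library, so here too and in the other ASPC values the sums need not hold the same cells. Of the 121 UMIs, 115 lay in 11 of 306 nuclei, and these 11 nuclei also had 7380 CPM of the 14 adipocyte markers, against 1207 CPM in the other 295 nuclei. In the KO-labelled library the 33 UMIs lay in 33 of 782 nuclei, 1 in each. The share of Adrb3 in the summed UMIs of Adrb3 and G0s2 was 27.1% (26.0 to 28.3) in adipocytes and 29.7% (25.3 to 34.3) in ASPC of the WT-labelled library, but 8.57% (5.86 to 12.0) in its lymphocytes. In the KO-labelled library it was 27.7% in adipocytes and 5.11% (3.54 to 7.10) in ASPC. These shares are over all nuclei of a class, not over the 11 nuclei, and the part of adipocyte RNA or doublets in the ASPC value was not tested.

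Adrb1 was low in every class. It had 17.0 and 21.7 CPM in mural nuclei, from 1 and 3 UMIs. In myeloid nuclei, 7 UMIs were counted in the WT-labelled library and 37 UMIs (14.2 CPM) in the KO-labelled library, where adipocytes had 9.52 CPM, and the intervals of neighbouring classes in this order overlapped, apart from adipocytes over ASPC (1.21 CPM) in the KO-labelled library. Lipe stood second in endothelial nuclei in both libraries, with 280 and 308 CPM, and adipocytes were 2.90-fold and 3.32-fold above them, beyond counting error. Pnpla2 had 96.9 and 137 CPM there, and adipocytes were 2.65-fold and 2.08-fold above, also beyond counting error. Endothelial over myeloid nuclei, the next class for Pnpla2, was 2.09 (1.43 to 3.00) in the KO-labelled library but 1.26 (0.700 to 2.18) in the WT-labelled library, where the order is not resolved. G0s2 in endothelial nuclei was 347 and 448 CPM. Abhd5 in ASPC was 17.4 and 35.4 CPM, a ratio of 2.04 (1.17 to 3.85) from 14 and 117 UMIs, in a class where 25.1% of 9300 genes were 2-fold or more higher. G0s2 had ratios of 0.521 (0.453 to 0.602) in ASPC and 0.495 (0.413 to 0.595) in myeloid nuclei, beside 0.557 in adipocytes, while its ratio in endothelial nuclei, 1.29 (0.953 to 1.77), includes 1. In the WT-labelled library 94 of the 287 G0s2 UMIs of ASPC and 88 of the 181 of myeloid nuclei lay in 3 nuclei each. Of the 613 and 367 in the KO-labelled library, 3 nuclei held 25 and 12. At 1000 UMIs the shares of nuclei with G0s2 ran the other way, with 14.7% (10.6 to 19.5) and 19.3% (16.6 to 22.3) in ASPC and 10.3% (6.85 to 14.8) and 15.9% (13.4 to 18.7) in myeloid nuclei, so these CPM ratios are not read as a direction.

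Within the KO-labelled library, adipocyte nuclei fell into 2 main clusters that were built without the 9 genes, cluster 2 with 545 nuclei and cluster 7 with 329. Their median depths were 6444 UMIs per nucleus in cluster 2 and 12123 in cluster 7. The part of depth in the differences between these clusters was not tested. The adipocytes of the WT-labelled library lay in cluster 5, which held only 5 nuclei of the other library. As a description, cluster 7 had less Lipe (827 against 1252 CPM, 0.660-fold), less Pnpla2 (229 against 352 CPM, 0.650-fold) and less Pde3b (865 against 1378 CPM, 0.628-fold) than cluster 2. Adrb1 was 3.48 against 16.8 CPM, a ratio of 0.207 (0.112 to 0.363). Adrb3 (576 and 594 CPM) and Abhd5 (113 and 119 CPM) differed by less than their counting intervals, and Mgll was higher in cluster 7 (657 against 550 CPM, 1.19-fold). Pde3b in either cluster lay above the 284 CPM of the WT-labelled library, and G0s2 (1669 and 1406 CPM) and Adrb3 in either cluster lay below its 2737 and 1019.4 CPM. Adrb1 in cluster 2 was level with the 16.8 CPM of the WT-labelled library, and only cluster 7 lay below it. Pnpla2 in the 2 clusters lay on either side of the 256 CPM of the WT-labelled library. Lipe, Mgll and Abhd5 in either cluster lay above their values there, in part with overlapping intervals.

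Joint detection in single adipocyte nuclei is given for G0s2 with Pnpla2 and Adrb3 with Lipe, pairs with large contrasts in the WT-labelled library. At 1000 UMIs, 3 of the 9 genes were detected in 30.9% of adipocyte nuclei of the WT-labelled library and in 29.8% of those of the KO-labelled library, and 5 or more in 10.0% and 14.4%. Pnpla2 was detected in 62 of 302 nuclei with a G0s2 UMI (20.5%) and in 23 of 57 without one (40.4%) in the WT-labelled library. In the KO-labelled library these shares were 23.9% of 614 and 29.0% of 259. Lipe was found in 63.8% of the nuclei with Adrb3 and 49.7% of those without it in the WT-labelled library, but in 62.6% and 63.1% in the KO-labelled library. Several other pairs differed less. In the WT-labelled library Pnpla2 was found in 25.4% of the nuclei with Lipe and 21.4% of those without it. In the KO-labelled library Pde3b was found in 59.1% of the nuclei with Mgll and 58.9% of those without it. Nuclei of 1 library are not replicates, and no test was made.

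Genes with the most similar profile over the 11 class sums were named by the highest Pearson's r, as a description. For Adrb3 these were Lgals12 (0.98), Slc36a2 (0.98) and Insig1 (0.97), and for G0s2 Slc36a2 (0.98), Aifm2 (0.98) and Slc6a13 (0.98). Lipe was most like A530016L24Rik (0.99), Npr3 (0.98) and Nrg4 (0.98), and Pnpla2 most like Net1, Tenm4 and Adipor2 (0.97 to 0.98). For Mgll, whose profile has the endothelial peak, Actn4 (0.98), Snrk (0.98) and Acer2 (0.97) came first. Abhd5 was closest to Dmtn (0.97), Dolk (0.96) and Rbpms2 (0.95), and Pde3b to Stat5a (0.97), Dhrs7b (0.96) and Pmvk (0.95). Adrb1 was closest to Nabp1, Cyp4f13 and Etv3 (0.93 to 0.95), and for Adra2a, with its few UMIs, the first were Ubxn4, Kpna2 and Ddx52 (0.90 to 0.93).

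Other genes of the pathway were taken from a list by role. Of 42 genes, 33 reached 50 adipocyte counts, of which 14 were 2-fold or more higher in the KO-labelled library and 5 were 2-fold or more lower, against 26.8% and 15.8% of all genes; the 5 lower genes are near the share of all genes. After centring on intronic length the counts were 10 and 3, against 19.0% and 11.3% of all genes. Their median log2 ratio was 0.55, beside 0.05 over all genes, and 0.17 after centring, beside 0.00.

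The counts by role that follow are small and are to be read against the same 26.8% and 15.8%. Among the hormone and metabolite receptors, 3 of 8 were higher and 1 lower, and after centring 3 and 0. Npr3, the natriuretic peptide clearance receptor, had the highest level, with 616 and 1623 CPM (ratio 2.63, 2.47 to 2.81), and a log2 value of 0.90 after centring. Ptger3, an inhibitory prostaglandin E2 receptor, had 31.6 and 184 CPM (5.81, 4.40 to 7.84), and a log2 value of 1.84 after centring. Hcar1, the lactate receptor that restrains lipolysis, had 27.9 and 9.28 CPM (0.332, 0.227 to 0.491), and its log2 value after centring was -0.72. Of the G proteins and adenylyl cyclases, 3 of 8 were higher and 2 lower, and after centring 3 and 0. The inhibitory subunit Gnai1 had 59.6 and 375 CPM (6.29, 5.14 to 7.79), with a log2 value of 1.84 after centring. Gnai2 had 45.3 and 20.8 CPM (0.460, 0.348 to 0.612), with a log2 value of -0.98 after centring.

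Of the 6 protein kinase A and G genes, 2 were higher and 1 lower, and after centring 0 were higher and 1 lower. Prkar2b, the regulatory subunit typical of fat cells, had 566 and 1561 CPM (2.76, 2.58 to 2.95), and after centring its log2 value was 0.58. Prkg1 had 0 UMIs in the WT-labelled library and 69 in the KO-labelled library, at least 4.41-fold higher against a floor of 3 counts for the group, with no counting error on the 69. It has 1193258 intronic bases, and with that bound its log2 value after centring was -0.34, so no direction is read from it. Prkar1a had 51.5 and 24.1 CPM (0.469, 0.361 to 0.613), with a log2 value of -0.84 after centring. Of the 3 phosphodiesterases measured besides Pde3b, 2 were higher and 0 lower, and after centring 1 and 1. Pde4d, a cAMP-specific enzyme encoded by a very long gene, had 75.1 and 1250.0 CPM (16.7, 13.9 to 20.1), and its log2 ratio of 4.06 became 1.61 after centring. Pde4a had 22.3 and 11.4 CPM (0.511, 0.345 to 0.772), and its log2 value after centring, -1.32, lay past 2-fold.

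Of the 6 other lipases and lipolysis partners, 3 were higher and 1 lower, and after centring 2 and 1. Pnpla3, the closest relative of Pnpla2 and a target of lipogenic signals, had 279 and 2311 CPM (8.29, 7.55 to 9.13), and its log2 ratio was 3.05 before and 3.21 after centring. Hilpda, an inhibitor of Pnpla2 induced by hypoxia, had 76.9 and 16.5 CPM (0.215, 0.167 to 0.276), with log2 ratios of -2.22 and -1.36. Of the monoamine oxidases, which clear catecholamines, Maob had 9.93 and 45.3 CPM (4.56, 2.77 to 8.07) and Maoa 13.6 and 14.6 CPM (1.07, 0.677 to 1.77). After centring their log2 values were 1.23 and -0.52.

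**Figure D5:**
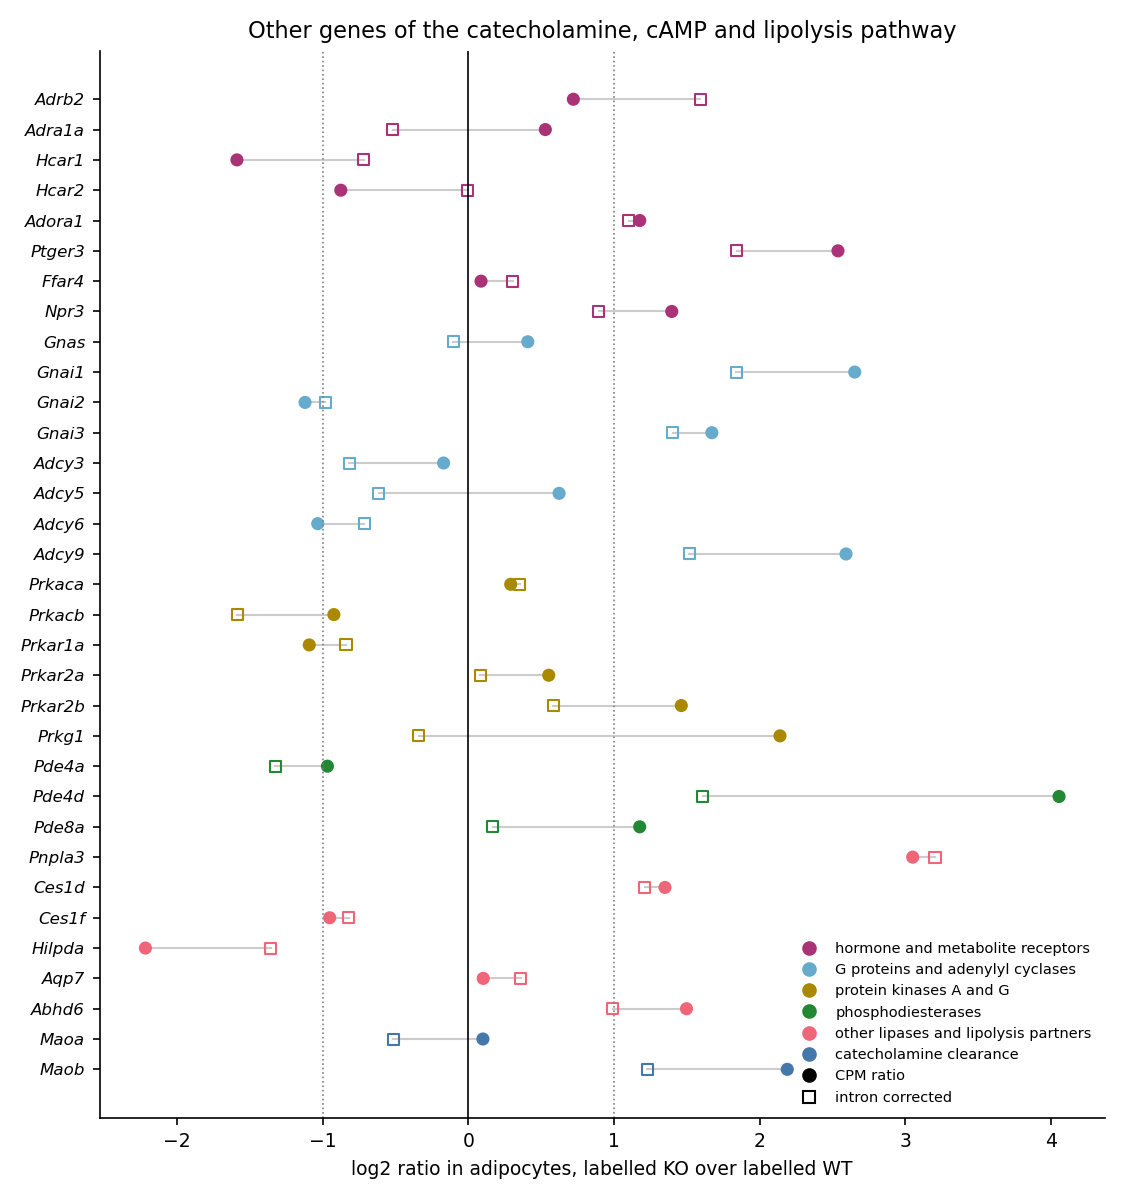
Log2 ratio in adipocytes of the 33 pathway genes with at least 50 counts, coloured by role, as CPM ratio (filled circles) and after centring on intronic length (open squares); dotted lines mark 2-fold, and Prkg1, with 0 counts in the WT-labelled library, is drawn at its lower bound. Pnpla3 and Hilpda are among the genes beyond 2-fold on either scale, as is Pde4d, which moves from 4.06 to 1.61.

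Markers of other cell types were also counted in the adipocyte sums, at levels that differed between the libraries. The 17 lymphocyte markers summed to 891 CPM in adipocytes of the WT-labelled library and 150 CPM in those of the KO-labelled library, with 0 and 1 of them (Ccr7) at 0, against 16865 and 17812 CPM for the 14 adipocyte markers. The 13 ASPC markers summed to 697 and 746 CPM, the 12 myeloid markers to 281 and 305 CPM, the 12 endothelial markers to 92.4 and 82.3 CPM, the 12 mural markers to 323 and 282 CPM and the 12 myocyte markers to 21.7 and 99.4 CPM. In the classes they mark, the lymphocyte markers summed to 9735 and 7920.1 CPM and the mural markers to 2876 and 7910.3 CPM, so the levels in adipocytes were larger against their own class in the WT-labelled library. The part of such RNA in the members' ratios was not tested beyond the subtraction that follows. Lists of 10 epithelial, 7 Schwann and 6 mesothelial markers summed to between 0.62 and 98.2 CPM. The UMIs per nucleus of lymphocyte nuclei were subtracted from the adipocyte sums, gene by gene. Pde3b, which lymphocytes may express, was included, and expression of G0s2 and other members in lymphocytes was not tested. The subtraction left Pde3b at a log2 ratio of 1.83, Adrb3 at -0.95 and G0s2 at -1.003, which puts G0s2 just past 2-fold. With this subtraction 1 member (Pde3b) passed the higher threshold and 2 (G0s2 and Adrb1) the lower, against 32.4% and 17.7% of the 10534 genes with a value. With at least 1000 genes per nucleus 1 (Pde3b) and 1 (Adrb1) passed, against 26.0% and 16.8%.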

How the data were processed

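The libraries were made with the 10x Genomics 3′ v3.1 chemistry. The authors deposited UMI counts per gene and barcode, made with Cell Ranger (6.1.1 per the file headers). The submitters' processing notes name mm10 and Seurat 4. Whether reads in introns were counted, and whether free RNA was removed, is not given in the sources used here. The deposited counts held 5000 barcodes per library, with 9376351 UMIs in the WT-labelled library and 19655049 in the KO-labelled library.

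Barcodes with at least 500 genes and at most 5% mitochondrial UMIs were kept. Scrublet (scanpy 1.11.5) called 111 of 2944 nuclei of the KO-labelled library doublets, and they were removed. In the WT-labelled library its threshold marked 4 of 3649, so the 4% with the highest scores (146) were removed. Merged counts were scaled to 10000 per nucleus, and 2000 variable genes without the members and pathway genes, 20 principal components, 20 neighbours and Leiden clustering (leidenalg 0.10.2, resolution 0.5) were used. Cluster names needed 3 markers that were in 5% of nuclei or more and 2-fold above the other clusters, 3 more than for the next list, with an own marker among the top 10 genes or 0.5 of the list passing. This scoring was set after the clusters had been seen, and left 336 and 45 nuclei unnamed. The members, marker lists and pathway list were chosen with earlier results of these data known.

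Counts were summed per class and library and scaled to a total of 1000000 (CPM). Levels have exact Poisson intervals, shares exact Clopper-Pearson intervals and ratios exact conditional binomial intervals, all 95% and for counting error only. A count of 0 allows up to 3 counts. Ratios over all genes used at least 50 counts, mitochondrial genes left out. Intronic bases came from GENCODE M1 by gene ID, since no annotation of mm10 with exons was used; 10405 of the 11105 genes had a value, and coordinates came from RefSeq on GRCm38.p6. All 9 members were named, and in the pathway list the gene with the highest CPM and those with the largest and smallest ratio in each role. A gene of the pathway list is not reported here. RefSeq held promoter windows for 7 of the 9 members. Alternatives were TMM scaling (edgeR 4.0.16), totals without mitochondrial genes and Malat1, intronic centring, 1000 genes per nucleus, no doublet removal, resolution 1.0, separate clustering, markers in each nucleus, all genes in clustering, subtraction of the lymphocyte level, no count filter, and thinning to 500 in place of 1000 UMIs. The ratio and centring code was tested on simulated data.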

Additional observations from a re-analysis of the deposited data

Results flagged for a closer look

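In 3 genes the uncentred ratio of labelled KO over labelled WT lay on opposite sides of 1 in adipocytes and in another class. Both counting intervals were clear of 1. With 1 library per genotype the difference was not tested in any of them. Lipe stood at 1.25 (1.18 to 1.33) in adipocytes and at 0.521 (0.398 to 0.688) in ASPC nuclei, from 81 and 173 UMIs. Most ASPC nuclei of the 2 libraries fell in different clusters. In ASPC of the WT-labelled library, 21 of the 81 UMIs lay in 3 nuclei, and the shares of ASPC nuclei with Lipe at 1000 UMIs, 6.77% (4.06 to 10.5) and 7.5% (5.73 to 9.61), showed no lower value in the KO-labelled library. In 11 of the 306 ASPC nuclei of the WT-labelled library the adipocyte markers summed to 7380 CPM, and their part in the Lipe value was not tested. G0s2 stood at 0.557 in adipocytes and at 1.79 (1.29 to 2.43) in lymphocyte nuclei, from 320 and 47 UMIs. Adrb3 stood at 0.574 in adipocytes and at 4.05 (1.77 to 8.52) in lymphocyte nuclei, from 30 and 10 UMIs. Lymphocyte nuclei are taken here as the background of nuclei outside adipocytes, and in the KO-labelled library they number 97 against 879 adipocyte nuclei, in the WT-labelled library 2016 against 371; the part of this in the lymphocyte ratios was not tested.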

How the results depend on the processing

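The median log2 ratio of the members in adipocytes was 0.11, and it moved to 0.35 with TMM scaling and to -0.15 without mitochondrial genes and Malat1; these scalings moved the median of all genes from 0.05 to 0.29 and -0.21. The count of members with a ratio of at least 2 was 1, and became 0 with intronic centring. The count with a ratio of at most 0.5 was 0, and became 3 without mitochondrial genes and Malat1 (24.5% of all genes passed there, against 15.8%), 1 with at least 1000 genes per nucleus (Adrb1, at -1.01; 16.8%) and 2 with the lymphocyte level subtracted (G0s2 and Adrb1; 17.7%). The cause was not tested. Over the 11 alternatives the log2 ratio ranged from -0.11 to 0.90 for Pnpla2, 0.06 to 0.58 for Lipe, -0.64 to 0.47 for Mgll, -0.19 to 0.31 for Abhd5, -1.11 to 0.05 for G0s2, -1.06 to 0.15 for Adrb3, -1.22 to 0.06 for Adrb1 and 0.94 to 2.19 for Pde3b. Resolution 1.0 and no count filter gave the main values. No paired analysis was possible because there was 1 library per genotype. Precision was lowest for Adrb1 and Adra2a, with 107 and 0 adipocyte UMIs in all; depth and low expression cannot be told apart there.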

Other observations

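Barcodes with fewer than 500 genes, which the comparisons above leave out, also carried these transcripts. In the 1448 such barcodes of the KO-labelled library, G0s2 stood at 660 CPM, Mgll at 387 CPM, Lipe at 257 CPM, Pnpla2 at 246 CPM, Pde3b at 89.7 CPM and Adrb3 at 55.2 CPM. In the 447 of the WT-labelled library the values were 286, 86.9, 89.2, 77.7, 50.3 and 29.7 CPM. Against adipocyte nuclei of the KO-labelled library, Pnpla2 was thus at 246 beside 285 CPM, whereas Pde3b was at 89.7 beside 1097 CPM and Adrb3 at 55.2 beside 585 CPM.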
